A study of Arabidopsis thaliana with 54 samples.

Results

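The 60 genes described here encode proteins of the large (60S) subunit of the cytosolic ribosome of Arabidopsis thaliana, the RPL genes. They were taken as a list of 60 gene identifiers among 32833 in the count table. The list names genes of families between RPL3 and RPL30 by their annotation, but not every gene or family in that range. It uses no measured value, but was chosen with earlier results of these data known. RNA-seq was done on whole Columbia 0 (Col-0) seedlings that had grown for 10 days in equinox days and then spent 48 h in 1 of 3 photoperiods. The comparison asks how the levels of these genes differ with day length and over the day. The groups were short days (SD, 8 h light and 16 h dark), equinox (EQ, 12 h light and 12 h dark) and long days (LD, 16 h light and 8 h dark), each harvested at 0, 4, 8, 12, 16 and 20 h after dawn (zeitgeber time, ZT00 to ZT20) as 3 replicates named A, B and C. Each of the 18 groups thus had 3 libraries, 54 in all. All groups shared the genotype, the equinox pre-growth, the temperature and the medium without added sugar, and EQ seedlings were the ones that saw no change of day length. The labels give the light state at harvest, with ZT00 in the dark. The last light time point was ZT08 for SD, ZT12 for EQ and ZT16 for LD. Nothing in the labels says that replicates came from separate sowings, so p-values measure the spread between these samples.

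The large subunit holds the peptidyl transferase centre, where amino acids are joined, and the tunnel through which the new chain leaves. Its proteins bind ribosomal RNA, steady its fold and shape the stalks on which translation factors act. In plants each of these proteins is usually encoded by several paralogous genes, and one copy of each protein enters a ribosome. Making ribosomes is among the costliest activities of a growing cell, and in Arabidopsis the genes of ribosomal proteins are known to respond to light, sugar and the TOR kinase. Their promoters often carry the telo box and the site II element, short motifs found upstream of genes of translation and of dividing cells.

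Because the members were compared for whether they moved together, the sequences around each annotated start in the RefSeq genome (TAIR10.1, 250 bases before to 50 bases after the annotated start, 300 bases in all) were searched for these motifs on both strands. All 60 members had an annotated start. The telo box, AAACCCTA, was in 33 members' windows (55%), against 6.22% of all 27443 promoters. A site II element, TGGGCC or TGGGCT, was in 52 members' windows (86.7%), against 21.7% of all promoters. With or without the other form, TGGGCC was in 44 members (73.3%, against 15.5%) and TGGGCT in 42 (70%, against 14.2%). Where TGGGCC is followed by CA it is also read on the other strand. Both a telo box and a site II element were in 28 members (46.7%), against 2.2% of all promoters. The TATA box letters TATAAA were in 34 members (56.7%), close to the 52.1% of all promoters. A match is a description of the letters and not a shown site.

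The 150 bases before the start are printed for 6 members on which the results below turn, to let the motif-rich and motif-poor promoters be read side by side. They lie at chr3:2953543-2953692 on the plus strand (RPL4A), chr3:9271466-9271615 on the minus strand (RPL5A), chr1:12023075-12023224 on the plus strand (RPL9C), chr4:7656595-7656744 on the minus strand (RPL13aC), chr4:17097255-17097404 on the plus strand (RPL8C) and chr1:26621780-26621929 on the minus strand (RPL27aC). Each is written 5′ to 3′ on the strand of its gene, and capitals mark telo boxes and site II elements read on either strand.
RPL4A: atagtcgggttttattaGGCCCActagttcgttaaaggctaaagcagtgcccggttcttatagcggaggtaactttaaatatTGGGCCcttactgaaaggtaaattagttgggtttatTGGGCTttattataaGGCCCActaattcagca
RPL5A: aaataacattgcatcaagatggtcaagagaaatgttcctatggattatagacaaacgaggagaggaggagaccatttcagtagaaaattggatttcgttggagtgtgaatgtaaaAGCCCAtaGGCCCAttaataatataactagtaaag
RPL9C: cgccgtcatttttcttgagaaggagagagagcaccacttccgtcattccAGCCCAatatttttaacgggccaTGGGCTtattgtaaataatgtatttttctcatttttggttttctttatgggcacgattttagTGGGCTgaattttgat
RPL13aC: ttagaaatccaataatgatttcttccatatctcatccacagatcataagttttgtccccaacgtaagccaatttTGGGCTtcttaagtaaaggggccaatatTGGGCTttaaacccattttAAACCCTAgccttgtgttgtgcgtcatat
RPL8C: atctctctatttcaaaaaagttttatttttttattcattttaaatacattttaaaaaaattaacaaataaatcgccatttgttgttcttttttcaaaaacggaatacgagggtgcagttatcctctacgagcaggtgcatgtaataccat
RPL27aC: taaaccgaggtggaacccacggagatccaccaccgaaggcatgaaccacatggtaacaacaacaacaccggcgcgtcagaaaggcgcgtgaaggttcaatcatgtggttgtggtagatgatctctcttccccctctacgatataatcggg
The printed bases of RPL4A, RPL5A and RPL9C held site II elements, and those of RPL13aC held a telo box beside site II elements. The telo boxes of RPL4A, RPL5A and RPL9C lay after the annotated start and are not in the printed bases. RPL8C and RPL27aC had no motif in the printed bases, and their site II elements lay elsewhere in the 300 bases.

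Counting depth limited what could be seen of these genes. Library totals were 2430049 to 4124570 counts without spike-ins, and the 60 members together took 0.216 to 0.760% of them (median 0.512%). The mean count per library was under 10 for 9 members, 10 to 100 for 41, 100 to 1000 for 7 and 1000 or more for 3. A count of 0 in at least 1 library was found in 36 members and in none of the libraries for 24, and 9 members were at 0 in 27 or more libraries. Zeros did not follow the mean count alone. RPL11C, with a mean of 75.9 counts, was at 0 in 7 libraries, and RPL17A, with a mean of 25.4, in none. The cause of such zeros was not tested. The filter on low counts left 58 members among 14115 genes tested. It left out RPL10B (AT1G26910), with a mean of 0.704 counts and 46 libraries at 0, and RPL11B (AT3G58700), with 1.17 counts and 49 libraries at 0. Shoot markers (RBCS1A, RBCS3B, CA1, LHCB1.1) were above 0 in every library, RBCS1A at 738 to 2340 counts. The 5 root markers had a median of 0 counts each and at most 27 counts, although roots were part of the seedlings, and the flower markers AP3 and AG were at 0 in all 54 libraries.

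The reads of a member and of an antisense neighbour cannot be told apart here. Overlaps were measured between whole annotated genes, introns included. Of the 60 members, 45 shared no base with an annotated gene of the other strand, and this class had a median of 27.4 mean counts and 10.2% of all counts on members. The 8 members overlapped by less than 200 bp had a median of 66.3 counts and took 52.8%, and the 7 overlapped by 200 bp or more had a median of 108 counts and took 36.9%. Over all nuclear protein-coding genes the medians ran the same way, at 0.574, 5.36 and 69.9 counts, and the 3306 genes overlapped by 200 bp or more took 80.01% of the counts. Sums are therefore given over the 45 members without overlap. Among members with values below, RPL17B shared 101 bp, RPL18C 256 bp and RPL11C 90 bp with an antisense gene.

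Levels of the members ran from 0.195 to 1311 CPM per kb, where CPM is a count scaled to the normalized library size and is divided by exon length to compare genes. RPL9C and its listed paralog RPL9B encode a protein near the site where elongation factors bind. RPL9C (AT1G33140, chromosome 1, 12023225 to 12024783, plus strand) had the highest level at 1311 CPM per kb. RPL15B (AT4G17390, chromosome 4, 9714092 to 9715648, minus strand) followed at 1260 CPM per kb, RPL9B (AT1G33120, chromosome 1, 12010879 to 12012547, plus strand) at 1257, RPL8C (AT4G36130, chromosome 4, 17097405 to 17098906, plus strand) at 187 and RPL13aC (AT4G13170, chromosome 4, 7653594 to 7656594, minus strand) at 127. All of the 5 highest members had an opposite-strand overlap: RPL9B and RPL9C of 72 bp with microRNA genes, RPL15B of 365 bp with a long noncoding RNA gene, RPL8C of 295 bp with AT4G36140 and RPL13aC of 1376 bp with AT4G13160. The highest member without overlap was RPL27aC (AT1G70600, chromosome 1, 26620821 to 26621779, minus strand) at 62.7 CPM per kb. The 5 lowest were RPL10B at 0.195 CPM per kb, RPL11B at 0.349, RPL13aD (AT5G48760) at 0.378, RPL10aC (AT5G22440) at 0.542 and RPL11A (AT2G42740) at 0.669, none with an overlap.

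**Figure D1:**
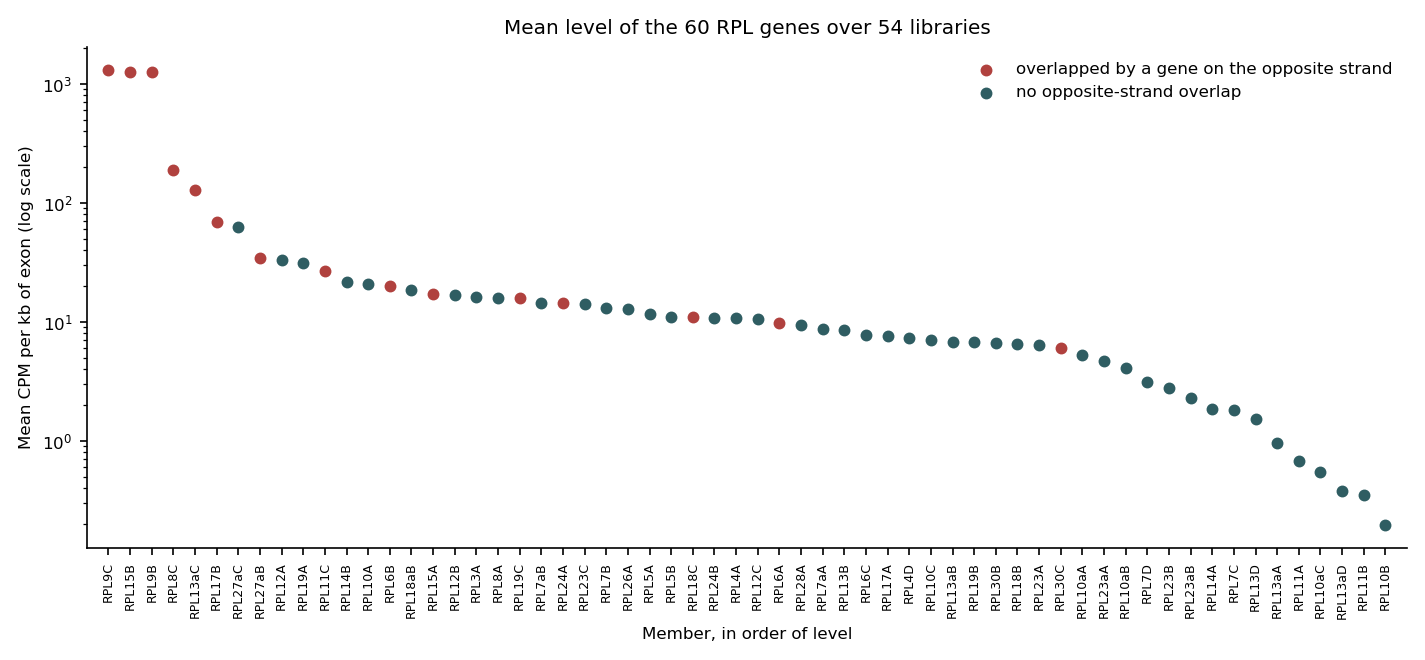
Mean level of each of the 60 members in CPM per kb of exon over 54 libraries, on a log axis; red marks members that share bases with an antisense gene. RPL9C (1311), RPL15B (1260) and RPL9B (1257) stand apart from all others, of which RPL8C (187) is the highest.

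Paralogs encoding the same protein were often far apart in level. The ratios here are between listed members only, and some families have further genes that are not members. RPL13aC stood 336-fold above RPL13aD, the widest gap within a family, and RPL10A stood 106-fold above RPL10B. RPL11C stood 76.8-fold above RPL11B and RPL15B stood 73.5-fold above RPL15A. RPL13aC, RPL11C and RPL15B carried an overlap and their low paralogs RPL13aD and RPL11B did not. Among listed members the narrowest gaps were those of RPL9 (1.04-fold between RPL9C and RPL9B), RPL5 (1.05-fold between RPL5A and RPL5B) and RPL30 (1.11-fold between RPL30B and RPL30C). RPL9D, a further RPL9 gene, is not a member. RPL5, with RPL11, carries the small ribosomal RNA of the large subunit into the ribosome. The coding sequences of RPL9B and RPL9C are 99.1% identical and those of RPL6B and RPL6C 94.2%. Those of RPL5A and RPL5B are 92.7% identical and those of RPL27aC and RPL27aB 91.8%. Reads of such pairs may be split between them, so their separate levels are uncertain.

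3 libraries listed an abundant member at 0. RPL9B was at 0 in SD ZT08 B and LD ZT20 A, and RPL15B was at 0 in LD ZT08 A. In the other 52 libraries the ratio of RPL9B to RPL9C was 0.980 to 1.04 (median 1.02), and the lowest level of RPL9B at LD ZT08 was 820.5 CPM. RPL10A was listed at 0 in EQ ZT00 C and LD ZT08 C. Results for RPL9B and RPL15B are given below from a fit without those 3 libraries, an alternative chosen after seeing the data.

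In LD the members were at their lowest at ZT08. Of the 60 members, 46 had their lowest LD group mean at ZT08 alone and none had its highest there, and 5 further members were at 0 at ZT08 and at another LD time point, so that their lowest points were tied. In EQ the most frequent lowest point was ZT00, for 25 members, and in SD it was ZT20, for 16. The highest group mean was at ZT16 for 25 members in LD and 20 in EQ, and in SD it was at ZT04 for 20 and at ZT00 for 17. Among the 45 members without overlap, 34 had their lowest LD mean at ZT08.

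**Figure D2:**
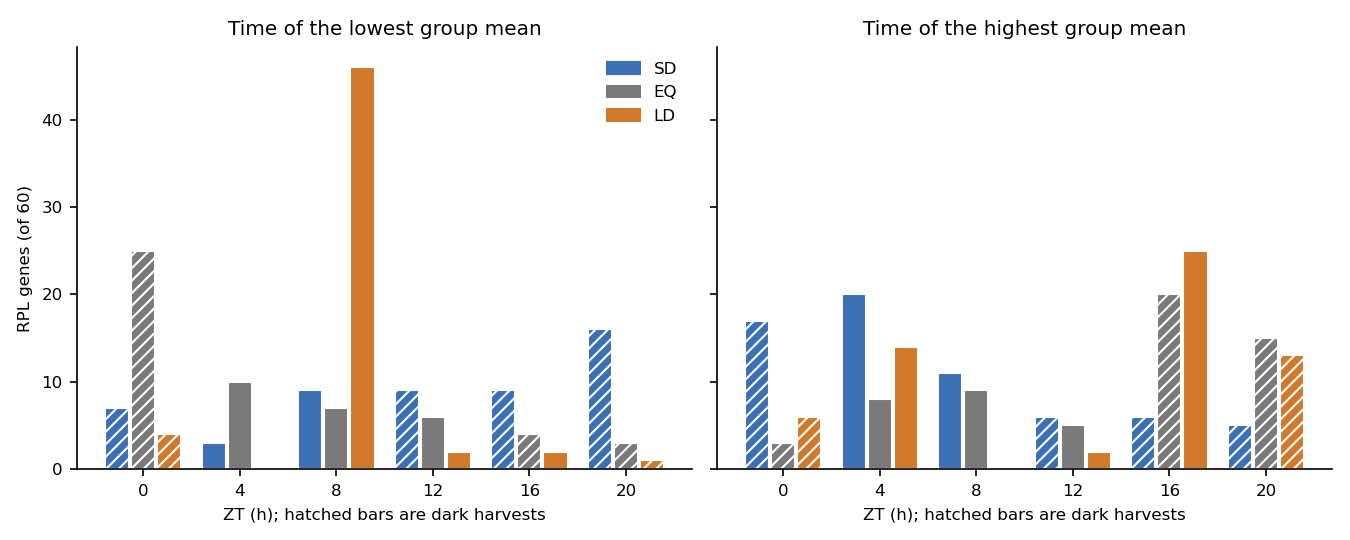
Number of the 60 members whose group mean was lowest (left) or highest (right) at each time point in SD, EQ and LD; hatching marks time points in the dark. The tallest bar is the lowest point at LD ZT08, with 46 members.

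The summed level of the 45 members without overlap was 322, 317 and 279 CPM in the 3 LD ZT08 libraries (306 ± 23.5, SD, n = 3). At LD ZT04 it averaged 637 ± 90.7 CPM and at LD ZT12 516 ± 37.5 CPM (SD, n = 3 each). The other 51 libraries ran between 274 and 817 CPM with a median of 551 CPM, and 1 of them, SD ZT20 A at 274 CPM, was below the highest LD ZT08 library. Over the day in LD the means were 549 CPM at ZT00, 637 at ZT04, 306 at ZT08, 516 at ZT12, 697 at ZT16 and 565 at ZT20. In EQ they were 439, 542, 604, 561, 612 and 617 CPM at the same time points, and in SD 520, 546, 506, 456, 436 and 399 CPM. For these 45 members the lowest EQ and SD means were thus at ZT00 and ZT20. Over all 60 members, whose sum is carried by RPL9B, RPL9C and RPL15B, the EQ sum was lowest at ZT08, at 4565 CPM, against 4928 at ZT00 and 5027 at ZT04, and without RPL9B and RPL15B it was 2322 CPM at ZT08, against 2434 at ZT00. The shoot markers summed to 886 to 1065 CPM at LD ZT08 (mean 984), between the means of 1239 at LD ZT04 and 848 at LD ZT12, and the root markers to 0 to 5.11 CPM. The part of tissue makeup in the trough was not tested, and in whole seedlings fewer cells expressing a gene and less RNA per cell cannot be told apart.

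The test of this trough compared ZT08 with the mean of ZT04 and ZT12 in the same photoperiod, with edgeR's quasi-likelihood test on 1 fit of all 54 libraries and a Benjamini-Hochberg adjusted p (FDR) over all 14115 genes. The contrast was chosen with the LD trough known, since the study describes a ribosome-rich group of genes with this shape. In LD, 4 of 58 members passed FDR under 0.05, all lower at ZT08, where 2.34% of all genes tested passed. The direction was more uniform than the calls. At ZT08, 55 of 58 members were below their neighbours, against 49.9% of all genes, and the median log2 difference was -0.80 over the members and 0 over all genes. With the 4 members at 0 in all 3 LD ZT08 libraries set to their bound of 3 counts per group, the median was -0.78. At an unadjusted p under 0.2 were 28 of 58 members (48.3%), against 28% of all genes, and 17 had p under 0.05. The normalization factors of the LD ZT08 libraries (0.794 to 0.799) were the lowest of the 54, and scaling by library totals alone moved the median of all genes to -0.26 and that of the members to -1.05, a gap of -0.79.

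RPL8C, whose protein sits near the peptidyl transferase centre, had 129, 132 and 109 CPM in the LD ZT08 libraries, against 219, 182 and 229 CPM at ZT04 and 243, 204 and 237 CPM at ZT12. No ZT08 library reached any library of the neighbouring time points. The log2 difference was -0.83 (SE 0.11, edgeR FDR 1.51e-06). RPL9C had 890, 936 and 819.5 CPM at LD ZT08, against 1205, 947.5 and 1243 CPM at ZT04 and 1364, 1337 and 1332 CPM at ZT12. Its highest ZT08 library was just below the lowest at ZT04. The log2 difference was -0.49 (SE 0.07, edgeR FDR 5.27e-06).

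RPL27aC, a member without opposite-strand overlap, had 32.5, 42.3 and 31.5 CPM at LD ZT08, against 69.1, 70.4 and 116 CPM at ZT04 and 61.6, 61.2 and 65.6 CPM at ZT12. The groups did not overlap, and the log2 difference was -1.04 (SE 0.20, edgeR FDR 0.000875). RPL4A (AT3G09630, chromosome 3, 2953693 to 2955748, plus strand), whose protein lines the exit tunnel and which has no overlap either, had 5.48, 6.99 and 9.26 CPM at LD ZT08, against 24.1, 17.98 and 33.5 CPM at ZT04 and 16.7, 16.2 and 15.6 CPM at ZT12. All 3 ZT08 libraries were below all 6 neighbours, and the log2 difference was -1.47 (SE 0.33, edgeR FDR 0.00498). The calls of RPL8C and RPL9C held in all 10 alternatives. That of RPL27aC was lost without replicate C (FDR 0.245), and that of RPL4A was lost without replicate A, without replicate C and without the 3 libraries with the zeros of RPL9B and RPL15B.

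RPL5A (AT3G25520, chromosome 3, 9269277 to 9271465, minus strand) had 6.57, 8.82 and 10.6 CPM at LD ZT08, against 28.8, 18.9 and 22.4 CPM at ZT04 and 21.8, 10.4 and 16.6 CPM at ZT12. Its highest ZT08 library was above 1 ZT12 library, and its log2 difference of -1.16 (SE 0.36) missed the threshold (FDR 0.0948). RPL10A (AT1G14320), whose protein joins the subunit late and is needed for subunit joining, had 16.4, 17.0 and 0 CPM at LD ZT08, against a mean of 35.9 ± 4.42 CPM at ZT04 (SD, n = 3) and 24.2, 23.1 and 27.6 CPM at ZT12 (log2 difference -1.42, FDR 0.431). RPL23aA (AT2G39460), whose protein lies at the tunnel exit, had 8.76, 1.82 and 2.40 CPM at LD ZT08 and a log2 difference of -1.09 (FDR 0.685). These 3 are members that the study names in its ribosome-rich subgroup. The study grouped genes by their whole daily pattern after a filter at p under 0.2, a criterion unlike the ZT08 contrast used here. It lists RPL10A among genes that differed between photoperiods at FDR under 0.05, which is not the ZT08 contrast. It also measured RPL10A and RPL5A by qRT-PCR, in other seedlings kept in constant LD or SD and not in the shifted ones used here. For the genes called only at p under 0.2, RPL5A among them, it reports photoperiodic regulation by qRT-PCR.

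Without the 3 libraries with zeros, RPL9B and RPL15B joined the members that were lower at LD ZT08. RPL9B had 904.7, 948.4 and 820.5 CPM there and a log2 difference of -0.51 (SE 0.08, edgeR FDR 0.000138). RPL15B had 919.5 and 779.7 CPM in the remaining LD ZT08 libraries and a log2 difference of -0.63 (SE 0.11, edgeR FDR 0.000562). With all libraries the fitted differences were -0.49 (FDR 1) and -1.20 (FDR 0.468). The 3 members with a positive difference at LD ZT08 were RPL13aC (0.08), RPL10C (0.27) and RPL13D (0.68), none past the threshold. RPL13aC had 275, 303 and 239 CPM at LD ZT08, against 289, 269 and 286 CPM at ZT04 and 223, 235 and 246 CPM at ZT12, so its groups overlapped.

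Several opposite-strand partners were also lower at LD ZT08. Of 11 partners tested, 5 passed as lower, 1 passed as higher and 5 did not pass. AT4G36140, the partner of RPL8C, differed by -0.69 on the log2 scale (edgeR FDR 0.00057), and AT1G06643 and AT1G06647, the microRNA genes over RPL9B and RPL9C, by -0.49 (FDR 7.97e-06) and -0.46 (FDR 3.17e-05). AT4G06695, over RPL15B, differed by -0.58 (FDR 0.000524) and AT1G23300, a transporter gene over 801 bp of RPL27aB, by -0.54 (FDR 2.24e-06). The partner called higher was AT4G18740, over 90 bp of RPL11C (FDR 0.00381), which was at 0 in all LD libraries at ZT04 and ZT12. The partners of RPL13aC (log2 difference 0.20), RPL18C (log2 difference 0.36), RPL15A, RPL17B and RPL30C did not pass. Which of each pair the reads came from cannot be told apart. RPL27aC and RPL4A, which have no partner, were also called lower at LD ZT08, and both calls were lost without replicate C. The part of antisense reads in the trough was not tested. Members with a telo box had a median log2 difference of -0.72 (30 of 33 tested negative) and those without one of -0.84 (25 of 25 tested negative), given as a description with no test.

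**Figure D3:**
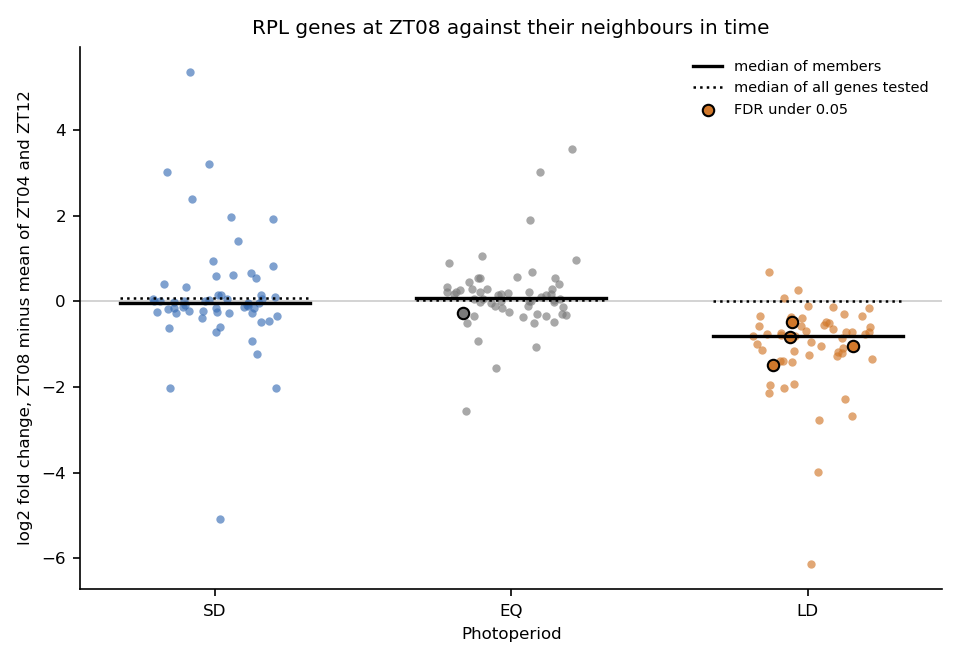
Log2 difference of ZT08 from the mean of ZT04 and ZT12 for each member tested in SD, EQ and LD; solid lines are members' medians, dotted lines the medians of all 14115 genes, and outlined points passed FDR under 0.05. The LD points lie below 0 for 55 of 58 members (median -0.80), and SD and EQ points lie on both sides.

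In SD, ZT08 was the last time point in the light and no member passed (0 of 58 at FDR under 0.05 in edgeR, lowest FDR 0.205, 4 at an unadjusted p under 0.05), where 4.31% of all genes did. The members' median there was -0.04 and -0.05 with zeros at their bound. In EQ 1 member passed, against 2.16% of all genes, and the median was 0.09, or 0.11 with zeros at their bound. That member was RPL9C, with 1029, 1105 and 1086 CPM at EQ ZT08, against 1165, 1179 and 1104 CPM at ZT04 and 1452, 1396 and 1519 CPM at ZT12 (log2 difference -0.27, edgeR FDR 0.017), a call lost without replicate A, without replicate C and with ZT04 as the only neighbour (highest FDR 0.651). RPL8C was at 181, 201 and 206 CPM at EQ ZT08 and its log2 difference of -0.35 had an FDR of 0.0758. Grouped by replicate letter, the values spread more in EQ than in LD. The median over members was -0.46, 0.11 and 0.60 in EQ for letters A, B and C, 0.10, -0.36 and 0.13 in SD and -0.78, -0.63 and -0.79 in LD. The letters did not pair samples across time points, so other groupings of the same libraries would give other values.

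The differences of this contrast between photoperiods were then tested. Between SD and LD, 3 of 58 members passed, all with the higher contrast in SD, where 2.01% of all genes passed. RPL8C had 248, 197 and 206 CPM at SD ZT08, against 129, 132 and 109 CPM at LD ZT08, and its contrast differed by 0.83 on the log2 scale (edgeR FDR 0.000357). RPL9C had 1303, 1168 and 1284 CPM at SD ZT08, against 890, 936 and 819.5 CPM at LD ZT08, and differed by 0.53 (edgeR FDR 0.000364). RPL27aC had 67.2, 48.5 and 62.4 CPM at SD ZT08, against 32.5, 42.3 and 31.5 CPM at LD ZT08, and differed by 1.201 (edgeR FDR 0.0078). In SD alone the log2 difference of ZT08 from its neighbours was 0.01 for RPL8C, 0.05 for RPL9C and 0.16 for RPL27aC, and none passed the threshold. For each of the 3 members every SD library was above every LD library at ZT08. RPL4A differed by 1.53 (FDR 0.0508). The difference was positive for 51 of 58 members, against 54.6% of all genes. All 3 calls were lost without replicate A and without replicate C, and that of RPL27aC also without replicate B (highest FDR 0.107 for RPL8C, 0.253 for RPL9C and 0.338 for RPL27aC, each without C). With ZT04 as the only neighbour RPL8C and RPL27aC lost theirs.

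Between EQ and LD, 52 of 58 differences were positive, against 52.2% of all genes, but 0 members passed in edgeR (9 at an unadjusted p under 0.05), where 0.0496% of all genes did. The nearest was RPL27aC, with 67.5, 85.6 and 76.8 CPM at EQ ZT08, against 32.5, 42.3 and 31.5 CPM at LD ZT08 (log2 difference of the contrast 1.21, FDR 0.0974). Between SD and EQ, 0 members passed (6 at an unadjusted p under 0.05), where 1.86% of all genes did, and RPL9C was nearest at 0.32 (FDR 0.0686).

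Step by step, the fall lay between ZT04 and ZT08 in LD and the return between ZT08 and ZT12. From ZT04 to ZT08, 5 members passed, all lower at ZT08, where 3.39% of all genes passed, and 54 of 58 members were negative, against 48.9% of all genes. They were RPL8C (log2 difference -0.77, edgeR FDR 2.81e-05), RPL27aC (-1.26, FDR 0.000205), RPL4A (-1.79, FDR 0.00123), RPL9C (-0.36, FDR 0.00226) and RPL5A (-1.43, FDR 0.0382). From ZT08 to ZT12, RPL9C (0.61, FDR 4.87e-07), RPL8C (0.89, FDR 2.07e-06) and RPL27aC (0.83, FDR 0.0308) passed, all higher at ZT12, where 2.41% of all genes passed, and 53 of 58 members were positive, against 52.2% of all genes. RPL4A and RPL5A were called on the way down only, which is not a test that their fall and return differ.

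Members were also called at other steps, of which 4 are described. From ZT00 to ZT04 in EQ, 3 members passed, where 8.21% of all genes did. RPL6B (AT1G74060), which shares 591 bp with an antisense gene, had 61.97, 50.2 and 51.3 CPM at EQ ZT04, against 19.5, 15.3 and 26.4 CPM at EQ ZT00 (log2 difference 1.42, edgeR FDR 0.00269), and its paralog RPL6A (AT1G18540), with 618 bp shared, had 20.4, 26.1 and 14.0 CPM, against 8.73, 6.68 and 10.4 CPM (1.22, FDR 0.03). RPL13aC was lower at EQ ZT04 than at EQ ZT00 (-0.44, FDR 0.0192). From ZT08 to ZT12 in EQ, RPL9C (0.44, FDR 0.000204) and RPL8C (0.45, FDR 0.0294) rose, where 1.83% of all genes passed. From ZT16 to ZT20 in LD, the step into the dark, RPL8C (0.50, FDR 0.00474) and RPL13aC (0.45, FDR 0.018) rose, where 6.14% of all genes passed. From ZT08 to ZT12 in SD, also the step into the dark, RPL17B (AT1G67430) fell by 0.66 (FDR 0.00511) and RPL13aC rose by 0.38 (FDR 0.0454), where 9.73% of all genes passed. A member was called at 10 of the 18 steps. Over all 18 steps 9 members were called at least once, and 5 to 6 with a replicate letter left out. The share of all genes called at least once over these steps was not counted, so the 9 members have no background here.

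**Figure D4:**
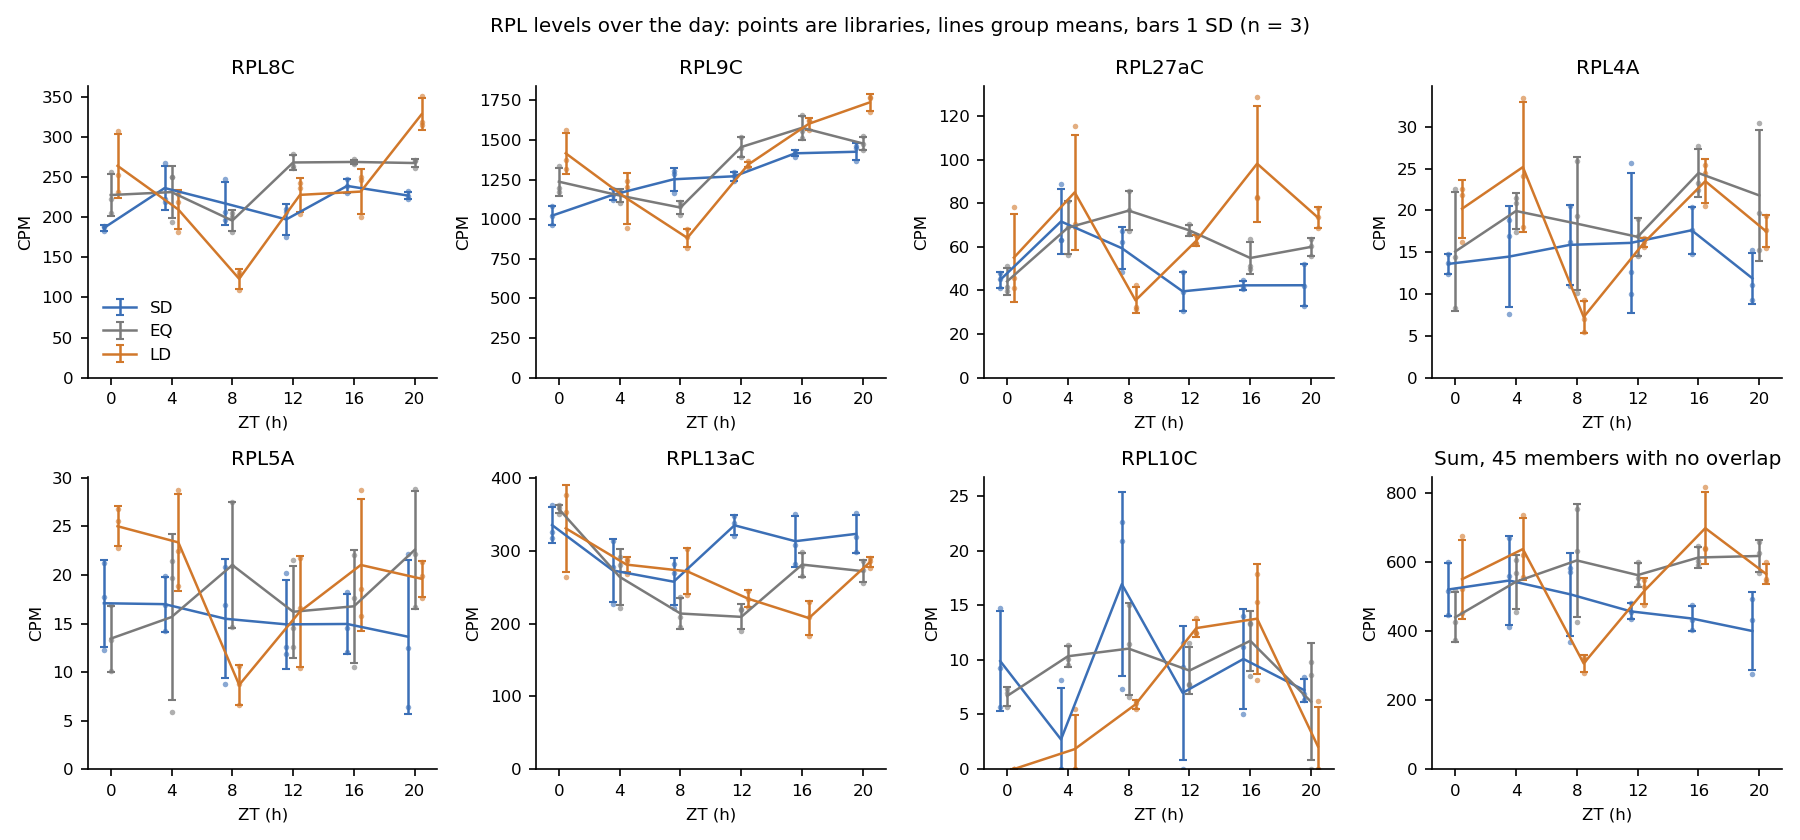
CPM over the day for RPL8C, RPL9C, RPL27aC, RPL4A, RPL5A, RPL13aC and RPL10C and for the sum of the 45 members without overlap, in SD, EQ and LD; points are libraries, lines group means and bars 1 SD (n = 3). At ZT08 the LD values of RPL8C (109 to 132 CPM) and of the sum (279 to 322 CPM) lie below those of SD and EQ, and RPL13aC shows no such trough.

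Averaged over the 6 time points, few members differed between photoperiods. Between SD and EQ, 4 of 58 members passed, where 4.99% of all genes did, a share close to that of the members. RPL13aC averaged 307 ± 12.5 CPM in SD and 267 ± 7.83 CPM in EQ, a log2 difference of 0.22 (edgeR FDR 0.00601). In this and the next paragraph, ± is the standard deviation of 3 day means (n = 3), each over the libraries of a single replicate letter. The letters did not pair samples, so each day mean joins libraries that share only a letter. The edgeR tests did not use these day means. RPL27aC averaged 50.02 ± 3.34 CPM in SD and 61.99 ± 4.00 CPM in EQ (-0.32, FDR 0.0247), and RPL8C 217 ± 11.1 CPM in SD and 243 ± 7.17 CPM in EQ (-0.16, FDR 0.0455). RPL6A averaged 12.2 ± 1.08 CPM in SD and 17.2 ± 2.16 CPM in EQ (-0.51, FDR 0.0355). The difference was negative for 48 of 58 members, against 51.6% of all genes, with a median of -0.18 over the members and -0.02 over all genes. RPL18C (0.53, FDR 0.0984), RPL6B (-0.41, FDR 0.0596) and RPL4A (-0.37, FDR 0.137) were the next nearest the threshold. Leaving out replicate A, B or C ended the calls of RPL27aC, RPL6A and RPL8C, and leaving out B or C that of RPL13aC (highest FDR 0.297, 0.231, 0.470 and 0.2002). The first 3 calls also ended without the filter and without the 3 libraries with zeros.

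Between SD and LD, 4 of 58 members passed, where 12% of all genes did, so the members' share was below the background. RPL13aC averaged 307 ± 12.5 CPM in SD and 269 ± 8.33 CPM in LD (0.20, FDR 0.00564), and RPL27aC 50.02 ± 3.34 CPM in SD and 68.3 ± 6.34 CPM in LD (-0.41, FDR 0.000957). RPL6B averaged 26.9 ± 4.99 CPM in SD and 34.9 ± 5.16 CPM in LD (-0.40, FDR 0.0372). RPL10C (AT1G66580) averaged 8.97 ± 2.07 CPM in SD and 6.09 ± 0.474 CPM in LD and was called higher in SD (FDR 0.0424), but its 3 LD ZT00 libraries were at 0, so its fitted difference depends on the prior count. The difference was negative for 43 of 58 members, against 54.2% of all genes. The call of RPL27aC held in all 9 alternatives (highest FDR 0.0351), and those of RPL13aC (without B or C, highest FDR 0.163), RPL6B and RPL10C (each without A or C, highest FDR 0.469 and 1) did not. RPL6B and RPL10C also lost theirs without the filter and without the 3 libraries with zeros. Between EQ and LD, 0 members passed in edgeR (3 at an unadjusted p under 0.05, lowest FDR 0.103 for RPL10C), where 1.35% of all genes did.

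The daily course itself differed between photoperiods for 6 of 58 members (edgeR, 10 interaction contrasts), where 9.42% of all genes passed, a share close to that of the members. They were RPL9C (FDR 2.09e-06), RPL8C (FDR 3.63e-06), RPL27aC (FDR 0.000253), RPL13aC (FDR 0.00314), RPL17B (FDR 0.0159) and RPL6A (FDR 0.0491). Without the 3 libraries with zeros, RPL9B (FDR 2.45e-05) and RPL15B (FDR 0.000314) were also called. Leaving out replicate A, B or C left 2 to 3 members called, RPL8C among them each time (highest FDR 0.0310).

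Within a photoperiod, a change over the day was called for 7 of 58 members in LD, where 13.3% of all genes passed, for 4 in EQ (15% of all genes) and for 4 in SD (17.4% of all genes). In LD they were RPL9C, RPL8C, RPL27aC, RPL13aC, RPL4A, RPL10C and RPL17B. In EQ they were RPL9C, RPL13aC, RPL8C and RPL6B, and in SD RPL9C, RPL27aC, RPL17B and RPL6A. Of the 9 members called in any photoperiod, 4 to 7 were called with a replicate letter left out. The share of all genes called in any photoperiod was not counted. RPL9C changed in all 3 photoperiods, and its highest group mean was at LD ZT20 (1738 CPM), EQ ZT16 (1577 CPM) and SD ZT20 (1426 CPM), each in the dark.

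Dark and light libraries were compared within each photoperiod. In SD, 3 members passed, where 18.4% of all genes did. RPL27aC ran between 30.7 and 52.3 CPM in the 12 dark libraries of SD (median 41.9) and between 48.5 and 88.9 CPM in the 6 light ones (median 63.0), a log2 difference of -0.63 (edgeR FDR 0.000367). RPL17B, whose protein lines the exit tunnel, ran between 33.5 and 62.2 CPM in the dark (median 49.2) and between 52.9 and 72.0 CPM in the light (median 59.5; -0.33, FDR 0.016). RPL13aC was higher in the dark, at 282 to 364 CPM (median 323), against 221 to 314 CPM in the light (median 274; 0.30, FDR 0.0038). The call of RPL27aC was lost without replicate A (FDR 0.0610), and those of RPL17B and RPL13aC without A or C (FDR up to 0.303 and 0.205). Both were also lost when ZT00 and the last time point in the light were left out (FDR 0.0852 and 0.111), and RPL17B lost its call with library totals (FDR 0.624) and without the filter (FDR 0.0503).

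In EQ, 5 members passed, where 17% of all genes did. RPL13aC had 256 to 363 CPM in the dark (median 286) and 189 to 292 CPM in the light (median 220; 0.40, edgeR FDR 3.59e-05), and RPL9C was also higher in the dark (0.23, FDR 0.000118). RPL12A (AT2G37190), whose protein sits at the base of the stalk, had 27.7 to 51.1 CPM in the dark (median 42.6) and 18.02 to 35.0 CPM in the light (median 23.3; 0.67, FDR 0.00291). RPL6B had 15.3 to 35.6 CPM in the dark (median 26.5) and 34.05 to 61.97 CPM in the light (median 46.0; -0.80, FDR 0.00149), and RPL27aC was also lower in the dark (-0.43, FDR 0.0127). RPL12A and RPL6B thus moved in opposite directions with light in EQ, the RPL6B groups overlapping only at their edges and those of RPL12A between 27.7 and 35.0 CPM. RPL6B lost its call without replicate A (FDR 0.0799), RPL12A without C (FDR 0.0758) and RPL27aC without B or C (FDR up to 0.160). With ZT00 and the last time point in the light left out RPL13aC (FDR 0.110) and RPL27aC (FDR 0.170) lost theirs, and with library totals RPL27aC did (FDR 0.313).

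In LD, 4 members passed, where 13.4% of all genes did. RPL8C had 231 to 352 CPM in the 6 dark libraries and 109 to 250 CPM in the 12 light ones, a log2 difference of 0.62 (edgeR FDR 1.08e-08). RPL9C (0.37, FDR 4.44e-08) and RPL13aC (0.31, FDR 0.00261) were also higher in the dark. RPL10C was at 0 in 5 of the 6 dark libraries and at 6.23 CPM in the other, against 0 to 17.8 CPM in the light, and was called lower (FDR 0.00581). The light libraries of LD include the ZT08 trough, so for RPL8C and RPL9C this comparison and that of ZT08 share libraries. The calls of RPL8C and RPL9C held in all 10 alternatives, and those of RPL13aC and RPL10C were lost without replicate B or C (FDR up to 0.177 and 1) and with ZT00 and the last time point in the light left out (FDR 0.631 and 0.652). RPL13aC was higher in the dark in SD, EQ and LD, each call being lost with ZT00 and the last time point in the light left out. RPL27aC was lower in the dark in SD and EQ, and in LD its ranges overlapped (41.3 to 78.1 CPM in the dark and 31.5 to 129 CPM in the light).

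**Figure D5:**
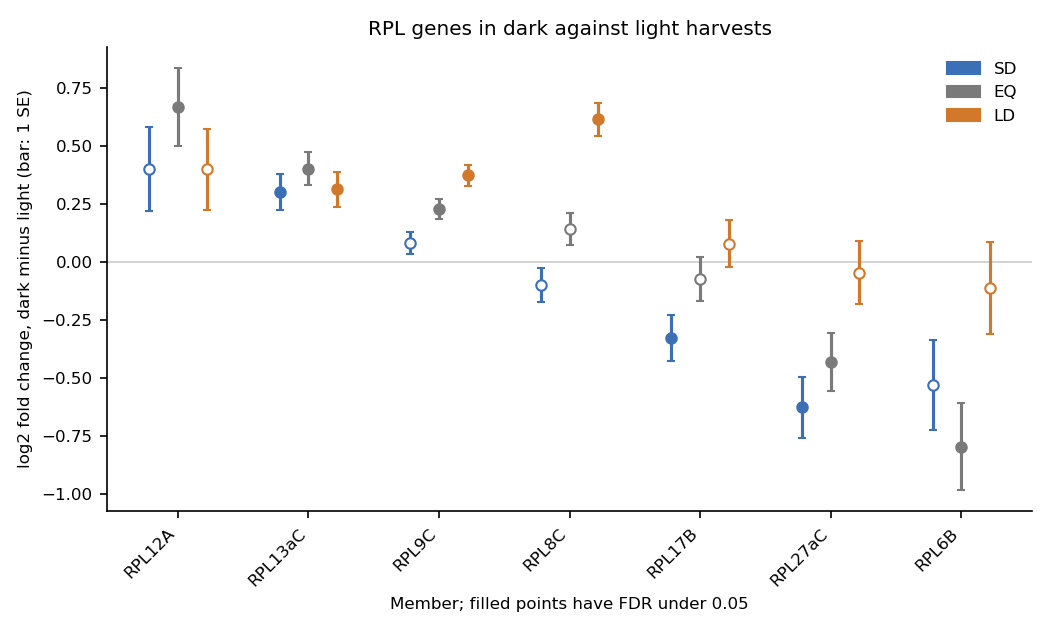
Log2 difference of dark minus light within SD, EQ and LD for the members called in at least 1 photoperiod, apart from RPL10C; bars are 1 SE and filled points passed FDR under 0.05. RPL13aC lies above 0 in all 3 photoperiods (0.30 in SD, 0.40 in EQ, 0.31 in LD), and RPL27aC lies below 0 in SD (-0.63) and EQ (-0.43).

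At single time points each pair of photoperiods was compared on its own 6 libraries, as the study did. Between 48 and 54 members were tested per comparison, among 7895 to 8979 genes. In at least 1 of the 18 comparisons, 6 of 55 members passed FDR under 0.05, where 22.4% of all genes did. At an unadjusted p under 0.2, 50 of 55 members (90.9%) passed at least once, where 72.6% of all genes did. Most members were tested in all 18 comparisons. The background held 11681 genes tested at least once, of which at most 8979 were tested in 1 comparison. Genes tested less often had fewer chances to pass, so these shares do not compare members and background on equal terms. All of these FDR calls were lost without replicate A, without B and without C, which left 2 libraries a group, and with the replicate letter as a block (0 members called each time).

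At ZT12, 3 members differed between SD and EQ, where 17.9% of all genes did. RPL13aC had 348, 320 and 338 CPM at SD ZT12, against 189, 220 and 219 CPM at EQ ZT12 (log2 difference 0.70, edgeR FDR 0.00803). RPL15B (-0.48, FDR 0.0156) and RPL17B (-0.77, FDR 0.0413) were lower in SD. Against LD ZT12, with 223, 235 and 246 CPM, RPL13aC was the single call (0.55, FDR 0.0229), where 13% of all genes passed. ZT12 was dark in SD and light in EQ and LD.

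At ZT16, 3 members differed between SD and LD, where 13.7% of all genes did. RPL27aC had 40.5, 44.7 and 41.8 CPM at SD ZT16, against 129, 83.0 and 82.6 CPM at LD ZT16 (-1.18, edgeR FDR 0.0229). RPL10A had 16.8, 21.1 and 14.5 CPM at SD ZT16, against 37.8, 33.9 and 38.5 CPM at LD ZT16 (-1.03, FDR 0.0289), and RPL13aC was higher in SD (0.63, FDR 0.0366). The difference was negative for 43 of 51 members, against 52.3% of all genes, and 30 of 51 had p under 0.2, against 44% of all genes. Between EQ and LD at ZT16, RPL13aC was the single call, with 266, 279 and 299 CPM in EQ, against 230, 184 and 210 CPM in LD (0.49, FDR 0.04), where 14.2% of all genes passed.

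At ZT20, when all 3 photoperiods were dark, RPL8C had 232, 226 and 223 CPM in SD, against 319, 352 and 315 CPM in LD (-0.54, edgeR FDR 0.0276), where 3.08% of all genes passed. Levels in SD were below those in LD for 43 of 53 members (51.4% of all genes) and below those in EQ for 45 of 53 (52.1% of all genes). At ZT16, 44 of 51 members were lower in SD than in EQ (51.5% of all genes). At ZT08 no member passed in any pair of photoperiods on its own 6 libraries (0 at FDR under 0.05 in edgeR, with 5 of 48 at an unadjusted p under 0.05 for SD against LD and 12 of 49 for EQ against LD). The shares of all genes at these 2 thresholds are not given here, so these counts stand without a background. In simulated counts the SD against LD test at ZT08 recovered 0 of 97 genes changed by a log2 value of 1. Of the members tested at ZT08, 42 of 48 were higher in SD than in LD (51.2% of all genes) and 47 of 49 higher in EQ than in LD (52.0% of all genes). At p under 0.2, 12 of 48 members differed between SD and LD, where 26.7% of all genes did, and 24 of 49 between EQ and LD, where 22.9% did.

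Other genes of ribosome production, taken as lists made with earlier results of these data known, lay on the same side at LD ZT08. Of 47 further 60S genes tested, 42 were below their neighbours (median log2 difference -0.72, or -0.79 with zeros at their bound) and 3 passed, where 2.34% of all genes did. RPL31B had 284, 272 and 258 CPM at LD ZT08, against means of 415 CPM at ZT04 and 401 CPM at ZT12 (-0.59, edgeR FDR 2.31e-06), and RPL21E was at 0 in all 3 LD ZT08 libraries. Of 66 genes of the small (40S) subunit, 56 were lower (median -1.11, or -1.04 with zeros at their bound) and 2 passed, RPS16C (-1.27, FDR 0.0148) and RPS8A (-0.93, FDR 0.0392). Of 7 genes of the acidic stalk proteins, 6 were lower and 0 passed in edgeR (3 at an unadjusted p under 0.05), with 5 of them at 0 in all 3 LD ZT08 libraries.

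Among 16 ribosome biogenesis factors, 13 were lower at LD ZT08 (median -1.32, or -1.30 with zeros at their bound) and 1 passed. NOP56, a core protein of the particles that methylate ribosomal RNA, had 12.8, 19.5 and 16.1 CPM, against means of 50.6 CPM at ZT04 and 37.0 CPM at ZT12 (-1.42, edgeR FDR 0.00104). Of 9 regulators and TOR pathway genes, 5 were lower (median -0.30) and 0 passed in edgeR (0 at an unadjusted p under 0.05). The direction seen in the 60 members was thus also that of most 40S and biogenesis genes tested, and no test set the lists against each other.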

How the data were processed

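RNA-seq of whole Col-0 seedlings was measured in 54 libraries, 3 per group. The authors trimmed reads with Trimmomatic 0.39, aligned them to TAIR10 with HISAT2 2.1.0 under a stranded setting and assigned them to annotated genes with StringTie 2.1.2, and the deposited table holds whole-number counts per gene, not normalized. The 92 spike-ins (0.0553 to 0.267% of counts) were left out of library sizes and tests. Totals were 2430049 to 4124570 counts per library, which leaves most members with under 100 counts a library, and errors cover the spread between replicates only. No 2 libraries of a group were alike (at least 12835 genes differed in count).

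The 60 members, the other lists, the markers and the contrasts were chosen with earlier results of these data known. Counts were tested in R 4.3.3 with edgeR 4.0.16 (TMM, filterByExpr at a minimum count of 10, quasi-likelihood test, Benjamini-Hochberg adjustment over all genes tested). A single fit with 18 group means gave day-wide, dark-light, ZT08, step, change-over-day and interaction results. The 18 comparisons of 2 photoperiods at 1 time point used their own 6 libraries, as in the study's methods. Levels (CPM) were counts scaled to the TMM-adjusted library size. Members named with values were those the study names, the 5 members with the smallest FDR in each direction of the day-wide, dark-light, ZT08 and interaction comparisons where past or nearest the threshold, the 5 highest and lowest by level and the widest and narrowest paralog ratios. Alternatives were DESeq2 1.42.0, other scalings, no filter, a replicate block, each replicate letter left out, other time points, members without overlap and, added after seeing the data, 3 libraries with zeros left out. Simulated counts had 200 genes changed by a log2 value of 1. For SD against LD over the day (13192 genes), 63 of 187 changed genes tested were recovered. For ZT08 in LD (13232 genes) it was 18 of 187. For ZT08 between SD and LD on 6 libraries (7493 genes) it was 0 of 97. All genes called, changed or not, numbered 73, 18 and 0 in these 3 tests. The day-wide test thus also called unchanged genes, and their share of its calls was above the FDR threshold. Every gene called for ZT08 in LD was a changed one. Promoter sequences and overlaps were from RefSeq TAIR10.1, read with Python 3.11.15, pandas 2.3.3, numpy 2.4.6 and Biopython 1.88, and plots were drawn with matplotlib 3.10.9. The labels give an age of 12 days.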

Additional observations from a re-analysis of the deposited data

Results flagged for a closer look

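Results in which the effect of time differed between photoperiods by a direct test are listed here, with values from edgeR's quasi-likelihood test adjusted over 14115 genes. The difference of ZT08 from its neighbours was higher in SD than in LD for RPL8C (FDR 0.000357), RPL9C (FDR 0.000364) and RPL27aC (FDR 0.0078), and all of these calls were lost without replicate A and without replicate C. The daily course differed between photoperiods for RPL9C (FDR 2.09e-06), RPL8C (FDR 3.63e-06), RPL27aC (FDR 0.000253), RPL13aC (FDR 0.00314), RPL17B (FDR 0.0159) and RPL6A (FDR 0.0491). RPL8C and RPL9C have an opposite-strand partner that also fell at LD ZT08, and RPL27aC has none. The part of partner reads in these results was not tested. The highest FDR over 9 alternatives of the interaction was 0.0831 for RPL9C, 0.0310 for RPL8C, 0.0556 for RPL27aC, 0.308 for RPL13aC, 0.712 for RPL17B and 0.550 for RPL6A. Groups held 3 libraries each, too few to look for a library far from the others.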

How the results depend on the processing

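No called difference changed sign: over the called members and their alternatives, 242 values stayed past the threshold and 111 did not. The median at LD ZT08 ran from -0.72 (without replicate C) to -1.05 (library totals). Counts of members called moved by over 1.5 times as follows, and the cause was not tested except where the setting itself drops members or libraries. Without the filter, calls between photoperiods at single time points were 3, against 6, and day-wide calls 2, against 6. With DESeq2 the single-time calls were 11, day-wide calls 10, against 6 each, changes over the day 14, against 9, ZT08 calls 9, against 4, and step calls 14, against 9. With library totals, changes over the day were 14 and ZT08 calls 8. Over the 45 members without overlap, calls were 2 (single time points), 2 (day-wide), 3 (change over the day), 1 (interaction, against 6), 3 (dark against light, against 8), 2 (ZT08) and 3 (steps). With the 3 libraries with zeros left out, day-wide calls were 3. With each replicate letter left out in turn, calls ranged from 0 to 0 (single time points), 1 to 4 (day-wide), 4 to 7 (change over the day), 2 to 3 (interaction), 7 to 8 (dark against light), 2 to 4 (ZT08) and 5 to 6 (steps).

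The replicate letters did not pair samples: deviations of same-letter libraries correlated at a mean of 0.00114 (-0.0941 to 0.0702). With the letter as a block, 0 members were called at single time points, 6 day-wide, 9 for change over the day, 5 for the interaction, 8 for dark against light, 4 for ZT08 and 9 for steps. Of the 60 members, 50 had under 100 counts a library on average.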
